A study of Mus musculus with 9 samples.

Results

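This report describes 10 genes that move water and ions across gland epithelia, *Aqp3*, *Aqp5*, *Slc12a2*, *Scnn1a*, *Cftr*, *Gabrp*, *Kcnn4*, *Atp1b1*, *Car2* and *Car12*, chosen by symbol from the 23366 gene entries of an RNA-sequencing experiment. All 10 were found, and all 10 passed the filter on low counts in every comparison. The experiment profiled monolayers of mSGc, a spontaneously immortalized epithelial line from submandibular glands of male C57BL/6 mice aged 12 weeks. Its 6 mSGc libraries came from passages P2, P4, P10 and P25 in serum-free medium (SFM) and from P10 and P25 in serum-containing medium (SCM), 1 library per condition. SFM held EGF, FGF, N2 supplement, insulin and dexamethasone, whereas SCM held fetal bovine serum, retinoic acid, EGF, triiodothyronine, hydrocortisone, insulin, transferrin and selenite. The labels call the media progenitor and differentiating, and these were matched to SFM and SCM because the cells were isolated in SFM and the P2 and P4 libraries carry only the progenitor label. The other line, immortalized mouse oral keratinocytes (IMOK) of C57BL/6 origin at early passage, had 3 libraries in a medium of its own. The paper gives IMOK the same passage number as the P10 mSGc data. The mSGc libraries all come from 1 line, and the line, its medium and its library preparation cannot be told apart between mSGc and IMOK. In these whole-culture libraries, more cells that make an RNA and more of that RNA per cell cannot be told apart either.

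Saliva forms when acinar cells secrete chloride into the lumen and sodium and water follow. The sodium pump on the basolateral side sets up the gradient on which the Na-K-2Cl cotransporter loads chloride, calcium-gated channels release chloride on the luminal side while potassium channels hold the membrane potential, and water crosses through aquaporin 5. Duct cells then take back sodium and chloride through the epithelial sodium channel and CFTR and exchange bicarbonate, which carbonic anhydrases supply.

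The libraries held 6237884 to 18444963 assigned reads, so that 3 reads corresponded to 0.163 to 0.481 CPM (reads scaled to a common library total). Levels are given as TPM, a transcript abundance scaled to a common total, for which reads are divided by gene length, so as to let genes be compared. The summed TPM of the basal epithelial markers *Krt5*, *Krt14*, *Trp63* and *Krt15* was 8037 to 18673 in mSGc and 7681 to 8425 in IMOK. That of the luminal duct keratins *Krt7*, *Krt8*, *Krt18* and *Krt19* was 1786 to 13036 in mSGc and 1755 to 3591 in IMOK. Mature gland markers were uneven. The acinar list, *Aqp5* included, summed to 14.1 to 189 TPM in mSGc and 213 to 304 TPM in IMOK. Without *Aqp5* it summed to 0.558 to 184 TPM in mSGc and 0.230 to 193 TPM in IMOK, so that the lines overlapped. Of its genes, *Smr3a* reached 81.3 TPM, *Prol1* 60.0 and *Pip* 59.1. The granular and striated duct list summed to 0.635 to 53.0 TPM. Other defining genes were near 0, with the acinar transcription factor *Bhlha15* at most 0.478 TPM, the ionocyte factor *Foxi1* at most 0.336 TPM and the granular duct product *Ren1* at 0 in all 9 libraries. The fibroblast list summed to at most 18.6 TPM, the endothelial list to at most 0.863 TPM and the leukocyte list to at most 0.202 TPM, with *Cd3e* and *Emr1* at 0. IMOK replicate 1 stood apart from replicates 2 and 3: the chi-square per degree of freedom between their counts was 150 and 180, against 21.3 between replicates 2 and 3. The line comparison is therefore also given without replicate 1.

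Promoter sequences are shown for the 3 members called between media, *Gabrp*, *Cftr* and *Atp1b1*, and for the aquaporins and *Car12*. The counts are sums over each gene's exons and do not show which start site was used. Each line gives the 250 bases before the RefSeq start (mm9, located by exact match, on the gene's strand), with any match to TATAAA in capitals.
Gabrp, chr11:33478958-33479207, minus strand: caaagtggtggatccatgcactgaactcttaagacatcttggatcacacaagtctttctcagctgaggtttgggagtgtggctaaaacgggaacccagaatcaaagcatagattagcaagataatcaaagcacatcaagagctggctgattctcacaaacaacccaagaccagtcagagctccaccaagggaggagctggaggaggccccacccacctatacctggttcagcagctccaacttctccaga
Cftr, chr6:18120437-18120686, plus strand: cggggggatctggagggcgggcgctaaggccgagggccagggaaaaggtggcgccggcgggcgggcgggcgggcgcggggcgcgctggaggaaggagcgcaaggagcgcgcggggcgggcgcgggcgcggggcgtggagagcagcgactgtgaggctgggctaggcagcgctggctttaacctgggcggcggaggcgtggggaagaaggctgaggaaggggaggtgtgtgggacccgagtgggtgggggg
Atp1b1, chr1:166388487-166388736, minus strand: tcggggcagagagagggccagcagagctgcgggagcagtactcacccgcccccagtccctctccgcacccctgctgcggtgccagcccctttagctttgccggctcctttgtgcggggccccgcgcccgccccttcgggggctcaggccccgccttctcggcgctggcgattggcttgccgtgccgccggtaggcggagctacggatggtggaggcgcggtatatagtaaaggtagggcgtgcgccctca
Aqp3, chr4:41045217-41045466, minus strand: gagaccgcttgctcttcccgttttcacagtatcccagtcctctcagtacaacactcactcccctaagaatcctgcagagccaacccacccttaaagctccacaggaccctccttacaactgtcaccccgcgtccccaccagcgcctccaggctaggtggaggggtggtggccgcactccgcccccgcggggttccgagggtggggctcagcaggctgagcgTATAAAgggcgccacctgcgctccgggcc
Aqp5, chr15:99421209-99421458, plus strand: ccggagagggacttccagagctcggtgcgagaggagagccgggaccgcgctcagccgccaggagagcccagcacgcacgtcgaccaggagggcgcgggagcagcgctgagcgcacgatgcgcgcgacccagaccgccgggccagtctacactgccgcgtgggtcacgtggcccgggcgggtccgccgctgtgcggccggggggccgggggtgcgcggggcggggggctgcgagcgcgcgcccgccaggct
Car12, chr9:66561243-66561492, plus strand: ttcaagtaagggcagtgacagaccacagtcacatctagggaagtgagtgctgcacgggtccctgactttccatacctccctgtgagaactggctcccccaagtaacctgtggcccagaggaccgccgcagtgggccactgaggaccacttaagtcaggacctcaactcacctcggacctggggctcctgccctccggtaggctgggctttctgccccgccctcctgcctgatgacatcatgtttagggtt
The *Gabrp* stretch was 49.2% G and C, near the median of 52.4% over all promoters in the table, whereas those of *Aqp5* (78.4%), *Cftr* (76.4%) and *Atp1b1* (70.4%) were richer, with *Aqp3* at 64% and *Car12* at 59.2%. Short motifs were searched on both strands of the 7 members in the table (these and *Kcnn4*): the palindromic glucocorticoid response element, its half-site TGTTCT, the nuclear receptor half-site AGGTCA and the TATA box core TATAAA. The only match was TATAAA in *Aqp3*, 29 bases before the start. Over all 32851 promoters of the same length, TATAAA occurred in 12.4%, TGTTCT in 16.1%, which counts the full element too, AGGTCA in 14% and the full palindrome in 0.00913%. *Slc12a2*, *Scnn1a* and *Car2* were not in the table.

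Among mSGc libraries the members differed widely in level. By median TPM over the 6 libraries the order was *Kcnn4* (79.3), *Atp1b1* (38.4), *Slc12a2* (36.2), *Car12* (32.0), *Aqp5* (9.03), *Gabrp* (6.52), *Aqp3* (3.13), *Scnn1a* (2.41), *Car2* (1.45) and *Cftr* (0.999). The ranges over libraries overlapped in all 9 of the 9 neighbouring pairs, so the order of neighbours is not fixed by these data. The library with the highest level was P10 SCM for 7 of the 10 members. Among all 13053 genes that reached 1 TPM in an mSGc library, 25.2% were highest there. *Aqp3* was highest in P2 SFM, *Kcnn4* in P25 SFM and *Aqp5* in P25 SCM.

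**Figure D1:**
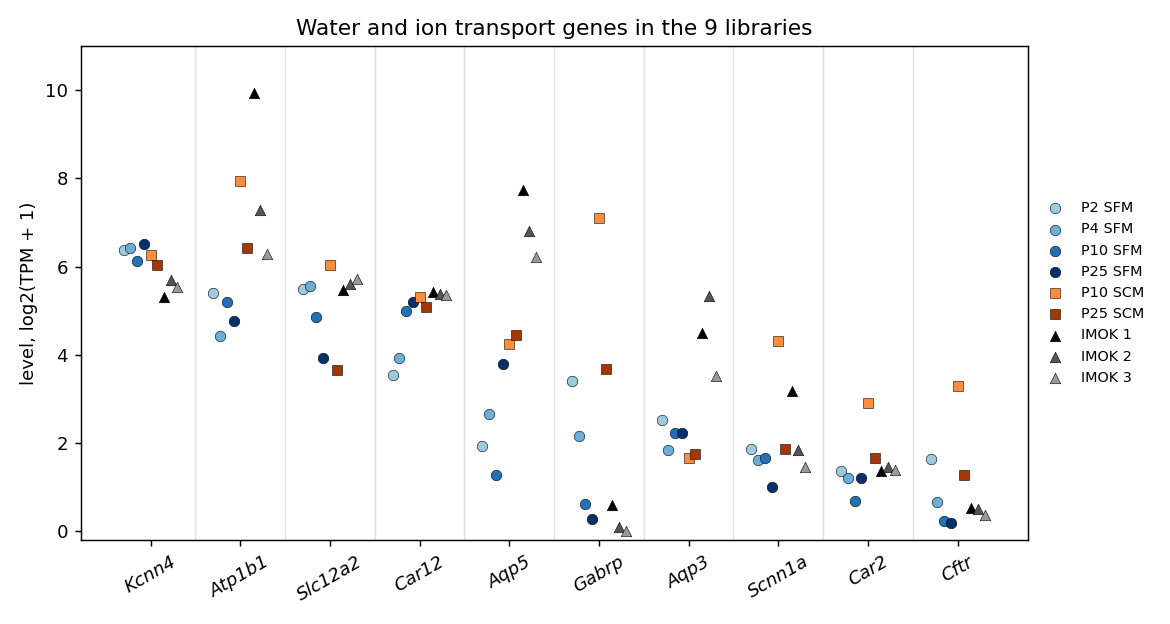
Level of each gene on the vertical axis, as log2(TPM + 1), in each of the 9 libraries (circles, mSGc in SFM; squares, mSGc in SCM; triangles, IMOK replicates 1 to 3), with genes ordered by their median in mSGc. The orange square of P10 SCM lies far above the other mSGc points for *Atp1b1*, *Gabrp*, *Scnn1a*, *Car2* and *Cftr*, and the IMOK triangles lie above all mSGc points for *Aqp5*, *Aqp3* and *Car12* and below them for *Kcnn4*.

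The medium comparison asked how the members differed between SFM and SCM at the same passage. *Gabrp*, *Cftr* and *Atp1b1* were higher in SCM at both P10 and P25, and these 3 of the 10 members passed the test, whereas none was called lower. Over all 11938 genes tested, 0.754% were called higher and 0.276% lower in SCM (edgeR's quasi-likelihood test on the 4 matched libraries with passage as a block, adjusted p under 0.05 after Benjamini-Hochberg adjustment). The median log2 fold change of the 10 members was 1.82, beside 0.0067 for all genes tested. The members were chosen with earlier results of these data known, so the contrast with all genes is a description and no test of the set. The fit to the 4 matched libraries has 1 residual degree of freedom and leans on the spread shared between genes. In a fit to all 9 libraries, called the shared fit, none of the 3 calls held. Its adjusted p was 0.301 for *Gabrp*, 0.301 for *Cftr* and 0.912 for *Atp1b1* in edgeR's test. The spread there came from the IMOK replicates and the 4 matched libraries, since P2 and P4 each had a term of their own. In that fit edgeR called 0 members, 3 were at an unadjusted p under 0.05, and DESeq2 on the 4 matched libraries called 4. The same shared fit without IMOK replicate 1 called 4 members, *Scnn1a* (adjusted p = 0.0449) besides the 3.

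*Gabrp* encodes the pi subunit of the GABA-A receptor, a ligand-gated chloride channel subunit found in epithelia outside the nervous system. Its gene lies at chr11:33450781-33478957 on the minus strand (mm9). The level in SFM was 9.62 TPM at P2, 3.43 at P4, 0.530 at P10 and 0.215 at P25, and in SCM it was 137 TPM at P10 and 11.7 at P25. The 2 SCM libraries were above all 4 SFM libraries, and P10 SCM was far above every other library. From 8 reads in P10 SFM and 2839 in P10 SCM, the fold between media was 231 (95% counting interval 117 to 536), and at P25 it was 48.0 (21.4 to 133). The fitted log2 fold change was 7.02 ± 0.51 (SE; adjusted p = 0.00475). Counting intervals here and below are exact, are for read counts scaled by TMM factors, and cover counting error only. The folds and ratios given with them use the same scaled reads, so they can differ from ratios of the TPM values. Across all alternatives the *Gabrp* fold change stayed positive. It was 5.54 to 7.84 on the log2 scale when each library of the shared fit was left out in turn. Without a library of P10 or P25, the pair at the other passage alone sets the estimate, so this range repeats the folds at P25 and P10.

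*Cftr* encodes the chloride and bicarbonate channel of duct cells (chr6:18120687-18272769, plus strand). SFM levels were 2.10 TPM at P2, 0.583 at P4, 0.172 at P10 and 0.131 at P25, and SCM levels were 8.72 TPM at P10 and 1.41 at P25. P2 SFM was above P25 SCM, so the media overlapped over all passages but not at matched ones. The fold at P10 was 45.3 (19.2 to 141) and at P25 it was 9.53 (4.07 to 25.8), from 5 and 7 reads in the respective SFM libraries. The fitted change was 4.41 ± 0.65 (adjusted p = 0.0385 by edgeR's test), and it became 0.0514 with DESeq2's size factors in edgeR. Exons of *Cftr* overlap the antisense gene *Gm15592* by 129 bases in GENCODE vM1. Since the use of strand in counting is not given in the sources used here, reads in that stretch cannot be assigned to one gene.

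*Atp1b1*, the beta-1 subunit of the sodium pump, was the most abundant of the 3 (chr1:166367398-166388486, minus strand). It stood at 41.4, 20.6, 35.5 and 26.0 TPM across the SFM passages and at 244 and 84.1 TPM at P10 and P25 in SCM. Both SCM libraries exceeded all SFM libraries. SCM exceeded SFM 6.16-fold at P10 (5.55 to 6.85) and 2.85-fold at P25 (2.54 to 3.20). In the fit the change was 2.09 ± 0.31 on the log2 scale (adjusted p = 0.0385 by edgeR's test), and with DESeq2's size factors in edgeR the adjusted p was 0.0524.

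**Figure D2:**
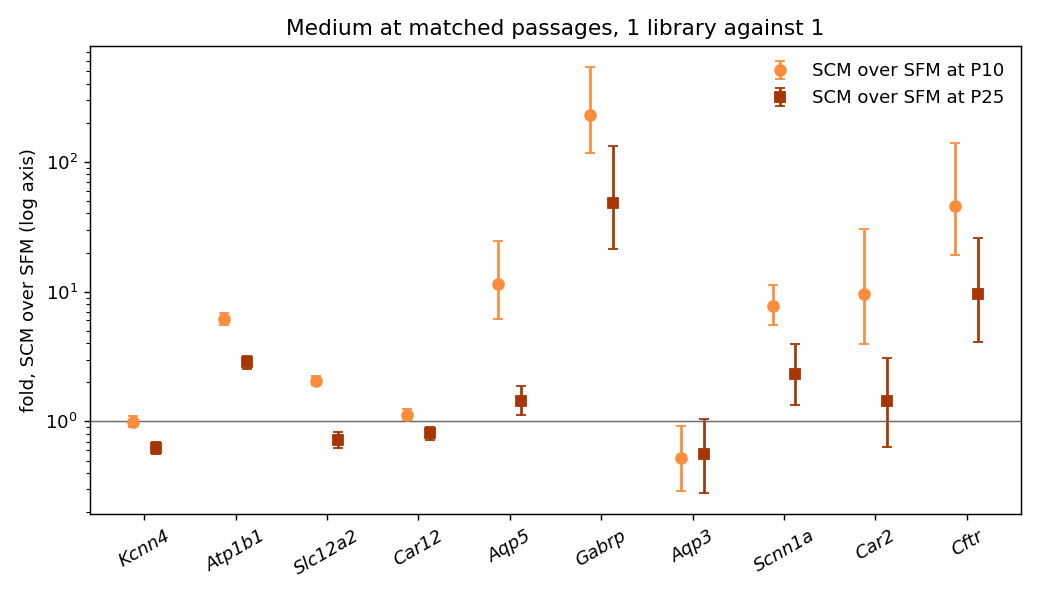
Fold of SCM over SFM on a log axis for each gene, at P10 (circles) and P25 (squares), from 1 library against 1; bars are exact 95% counting intervals of TMM-scaled reads and the line marks a fold of 1. The folds of *Gabrp* (231 and 48.0) and *Cftr* (45.3 and 9.53) are the highest at both passages, and the P10 point is above the P25 point for 9 of the 10 genes.

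Aquaporin 5, the luminal water channel of acinar cells (*Aqp5*, chr15:99421459-99425260, plus strand), stood at 2.80, 5.31, 1.40 and 12.7 TPM across the SFM passages and at 18.0 and 20.9 TPM in SCM. Both SCM values were above all SFM values, but P25 SFM was close to them. The fold was 11.5 at P10 (6.12 to 24.5) and 1.45 at P25 (1.12 to 1.86), and the fitted change of 1.81 ± 0.70 did not pass (adjusted p = 0.382 by edgeR's test). *Aqp3*, a water and glycerol channel of basal epithelial cells (chr4:41039757-41045216, minus strand), stood at 4.72, 2.59, 3.70 and 3.67 TPM in SFM and at 2.15 and 2.35 TPM in SCM. Each SCM value was below every SFM value. The SCM to SFM ratio was 0.521 at P10 (0.292 to 0.922) and 0.563 at P25 (0.282 to 1.04), and the fitted change was -0.86 ± 0.55 (adjusted p = 0.612).

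*Scnn1a* encodes the alpha subunit of the epithelial sodium channel (chr6:125271358-125294960, plus strand). From P2 to P25, SFM cultures held 2.65, 2.07, 2.18 and 1.01 TPM, whereas SCM cultures held 18.9 TPM at P10 and 2.64 at P25. P10 SCM alone stood above the rest, since P25 SCM lay beside P2 SFM. Its media differed 7.78-fold at P10 (5.50 to 11.3) and 2.30-fold at P25 (1.33 to 3.97), with a fitted change of 2.17 ± 0.52 (adjusted p = 0.144 by edgeR's test, and 0.0229 by DESeq2). The channel's other subunits were near the detection limit, with *Scnn1b* at most 0.555 TPM and *Scnn1g* at most 0.586 TPM in any library.

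*Slc12a2* encodes NKCC1, the Na-K-2Cl cotransporter that loads acinar cells with chloride (chr18:58038332-58106475, plus strand). Its level in SFM was 44.3, 46.2, 28.2 and 14.3 TPM at P2, P4, P10 and P25, and in SCM it was 64.6 and 11.7 TPM. The highest and the lowest mSGc levels were thus both in SCM. The ratio of SCM to SFM was 2.05 at P10 (1.90 to 2.22) and 0.720 at P25 (0.620 to 0.833), on opposite sides of 1, and the fit over both passages gave 0.32 ± 0.37 (adjusted p = 0.796 by edgeR's test). *Kcnn4*, the intermediate-conductance calcium-activated potassium channel (chr7:25155282-25170231, plus strand), was the steadiest member in mSGc. Its levels were 82.6, 85.0, 68.4 and 90.7 TPM in SFM and 76.0 and 64.6 TPM in SCM, with a ratio between media of 0.995 at P10 (0.900 to 1.10) and 0.626 at P25 (0.561 to 0.698). The fitted change was -0.32 ± 0.25 (adjusted p = 0.686).

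Of the carbonic anhydrases, the cytosolic *Car2* (chr3:14886426-14900770, plus strand) was at 1.58, 1.31, 0.607 and 1.31 TPM in SFM and at 6.53 and 2.13 TPM in SCM. Both SCM levels were above all SFM levels, yet from only 5 to 74 reads. Its fold was 9.64 at P10 (3.95 to 30.6) and 1.43 at P25 (0.637 to 3.07), and the fitted change of 1.83 ± 0.82 did not pass (adjusted p = 0.464 by edgeR's test). The membrane-bound *Car12* (chr9:66561493-66614652, plus strand) was at 10.6, 14.2, 30.9 and 35.8 TPM in SFM and at 38.8 and 33.1 TPM in SCM. Its ratios were on opposite sides of 1, at 1.13 at P10 (1.01 to 1.25) and 0.812 at P25 (0.722 to 0.913), with a fitted change of -0.043 ± 0.23 (adjusted p = 0.963).

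At P10 the counting interval of the SCM to SFM fold lay above 1 for 8 members, below 1 for *Aqp3* and around 1 for *Kcnn4*. At P25 it lay above 1 for 5, below 1 for 3 (*Slc12a2*, *Kcnn4*, *Car12*) and around 1 for 2 (*Aqp3*, *Car2*). The share of all genes with such intervals was not computed, so these counts are no result about the members as a set. Over all genes the chi-square per degree of freedom between counts was 72.6 for the P10 pair and 37.7 for the P25 pair. Differences beyond counting error were thus common. The fold was larger at P10 than at P25 for 9 of the 10 members, while the fitted medium change was larger at P25 for 6483 of all 14101 genes tested. The test of that difference, in which the 3 IMOK libraries alone supplied the spread, called 0 of 14101 genes (0.00%), with 265 at an unadjusted p under 0.05 by edgeR's test and 7 called by DESeq2. It called 0 of the 10 members by either tool, with *Aqp5* (unadjusted p = 0.0472, adjusted p = 1.00) and *Slc12a2* (unadjusted p = 0.0371, adjusted p = 1.00) under 0.05 before adjustment. Without IMOK replicate 1 the same edgeR test called 317 genes, *Aqp5* and *Slc12a2* among them.

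Some markers of other epithelial cell types differed between media too. The summed level of the luminal duct keratins was 1800 TPM in P10 SFM and 10562 in P10 SCM, and 1786 in P25 SFM and 6579 in P25 SCM, with *Krt7*, *Krt18* and *Krt19* called higher in SCM of the 4 tested. The summed basal markers were 14583 and 10211 TPM at P10 and 18673 and 8037 TPM at P25, in SFM and SCM respectively, with none of 4 called. Squamous *Krt4* was at 0.204 and 88.2 TPM at P10 and at 0.386 and 94.8 TPM at P25, and it was called with *Krt13*, 2 of the 6 squamous markers tested (adjusted p 0.00144 and 0.00942 by edgeR's test). In SFM and SCM the granular and striated duct list summed to 0.994 and 27.3 TPM at P10, with *Klk1* at 0 and 23.3 TPM. At P25 it summed to 0.635 and 0.959 TPM, and 0 of its genes were tested. The myoepithelial list summed to 8.28 and 73.4 TPM at P10 and to 48.3 and 5.23 TPM at P25. Nearly all of that was *Acta2*, at 7.86 and 73.0 TPM and at 48.0 and 5.08 TPM. *Acta2* was not called between media (-0.019 ± 1.70, adjusted p = 0.998 by edgeR's test). Of the ionocyte list, the 5 genes other than *Cftr* summed to 0 and 2.62 TPM at P10 and to 0.472 and 0.661 TPM at P25. The part of these shifts in the members' levels was not tested.

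Of 128 further aquaporin, pump, transporter, channel, receptor subunit, channel regulator and carbonic anhydrase genes, 47 were tested, 1 was called higher and 1 lower between media, which is 4.26% beside the 1.03% of all genes called in either direction. *Kcne3*, a regulatory subunit of potassium channels, went from 0.759 TPM in SFM to 27.4 in SCM at P10, and from 0.479 to 4.08 TPM at P25 (log2 fold change 4.03 ± 0.65, adjusted p = 0.0492 by edgeR's test). *Kcnj15*, an inwardly rectifying potassium channel, was at 72.8 and 27.6 TPM at P10 and at 13.0 and 2.39 TPM at P25 (-2.00 ± 0.31, adjusted p = 0.0414). *Ano1*, the calcium-activated chloride channel of acinar cells, averaged 51.9 ± 30.3 TPM (SD, n = 6) in mSGc and 39.5 ± 4.29 (n = 3) in IMOK. It was at 111, 48.7, 44.2 and 47.9 TPM across the SFM passages and lower in SCM, at 27.4 TPM at P10 and 32.0 at P25. The fitted change between media of -0.79 ± 0.20 did not pass (adjusted p = 0.182 by edgeR's test).

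The next question was how the members changed with passage. At P25 against P10, with medium as a block, *Gabrp* was the only member called, and it was lower at P25. Among all 11938 genes tested, 7.66% were called, with 4.44% lower and 3.22% higher at P25. The *Gabrp* change was -3.00 ± 0.47 on the log2 scale (adjusted p = 0.0186 by edgeR's test). Within SCM its ratio of P25 to P10 was 0.0977 (0.0807 to 0.117), and within SFM it was 0.470 (0.134 to 1.54), from 6 and 8 reads. *Slc12a2* came next, with a fitted change of -1.54 ± 0.37 (adjusted p = 0.0553) and P25 to P10 ratios of 0.587 in SFM (0.532 to 0.647) and 0.206 in SCM (0.179 to 0.235). *Scnn1a* had a fitted change of -1.85 ± 0.51 (adjusted p = 0.0781), with ratios of 0.537 in SFM (0.319 to 0.901) and 0.159 in SCM (0.105 to 0.232). The call for *Gabrp* was lost in the shared fit to all 9 libraries (adjusted p = 0.361 by edgeR's test). In that fit edgeR called 0 genes and 1901 were at an unadjusted p under 0.05. DESeq2 called 3 members lower on the 4 matched libraries, *Slc12a2* (adjusted p = 0.000892) and *Scnn1a* (0.0333) besides *Gabrp*, and the shared edgeR fit without IMOK replicate 1 also called 3.

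The remaining members were not called and differed in direction. *Aqp5* was 10.5-fold higher in P25 SFM than in P10 SFM by reads (5.59 to 22.4) but only 1.32-fold higher between the SCM libraries (1.02 to 1.69), and its fitted change of 1.63 ± 0.70 did not pass (adjusted p = 0.191 by edgeR's test). *Atp1b1* had P25 to P10 ratios of 0.849 in SFM (0.744 to 0.969) and 0.393 in SCM (0.361 to 0.427). For *Cftr* the SCM ratio was 0.184 (0.121 to 0.271), and the SFM ratio of 0.877 rested on 7 and 5 reads (0.240 to 3.51). Fitted changes were -0.83 ± 0.30 for *Atp1b1* (adjusted p = 0.141) and -1.76 ± 0.63 for *Cftr* (adjusted p = 0.134). *Aqp3*, *Kcnn4*, *Car2* and *Car12* had fitted changes between -0.27 and 0.26, none of which passed.

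Over all 6 mSGc libraries, with log2 passage as a linear term and medium as a covariate, *Gabrp* was again the only member called. Its level changed by -1.72 ± 0.19 on the log2 scale per doubling of the passage number (adjusted p = 0.0368 by edgeR's test), and 0.490% of 12451 genes were called, 0.442% lower and 0.0482% higher. In SFM alone *Gabrp* went from 167 reads at P2 to 6 at P25, a ratio of 0.0277 (0.0100 to 0.0617), and the fit to the SFM libraries alone missed the threshold (adjusted p = 0.0707). *Cftr* changed by -1.16 ± 0.21 per doubling (adjusted p = 0.0727), with a P25 to P2 ratio of 0.0772 in SFM (0.0300 to 0.168), and it was called without P10 SFM (adjusted p = 0.0481). DESeq2 called 4 members over passage, *Cftr*, *Slc12a2* and *Car12* besides *Gabrp*. *Slc12a2* changed by -0.56 ± 0.19 (adjusted p = 0.273) with a ratio of 0.400 (0.367 to 0.436). In the other direction, *Car12* changed by 0.51 ± 0.11 per doubling (adjusted p = 0.120), and it stood 4.20-fold higher at P25 than at P2 in SFM (3.62 to 4.90). *Car12* was higher at each later passage in SFM, whereas *Gabrp* and *Cftr* were lower at each, the step from P10 to P25 resting on 5 to 8 reads. *Kcnn4* and *Atp1b1* had no such order in SFM, with P25 to P2 ratios of 1.36 (1.25 to 1.48) and 0.778 (0.689 to 0.879).

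**Figure D3:**
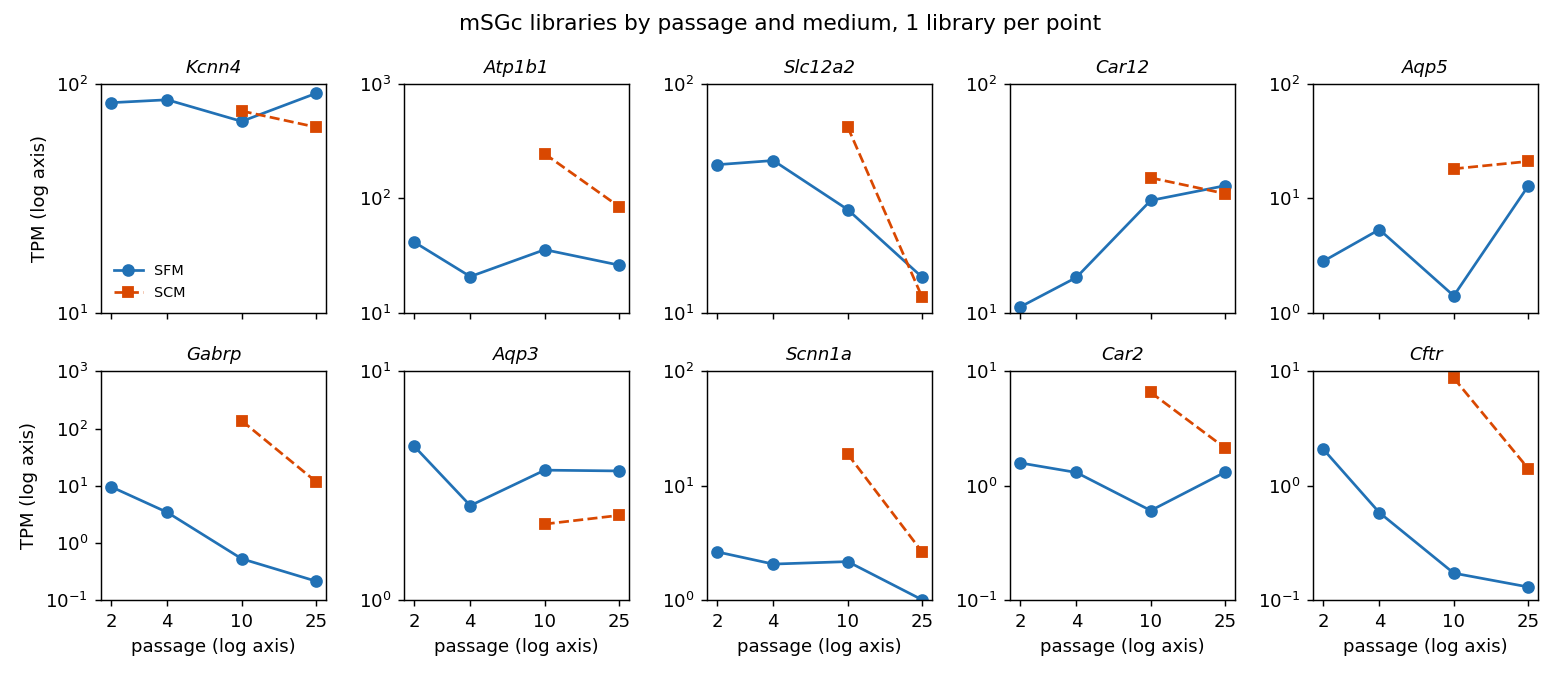
Level of each gene in TPM on a log axis against passage number on a log axis, in SFM (circles, solid line) and SCM (squares, dashed line), with 1 library per point and no error bar; vertical scales differ between genes. *Gabrp* and *Cftr* are lower at each later passage in both media, *Car12* goes from 10.6 to 35.8 TPM in SFM, and the SCM and SFM lines of *Slc12a2* cross between P10 and P25.

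Other features of these libraries changed with passage. In SFM the summed luminal duct keratins were 13036, 6348, 1800 and 1786 TPM at P2, P4, P10 and P25. Up to P10 this was the order seen for *Gabrp* and *Cftr*. Between P10 and P25 the sum hardly differed. *Krt8* was higher at P25 (672 and 1172 TPM), whereas *Krt7* (372 and 97.8), *Krt18* (738 and 516) and *Krt19* (18.2 and 0.428) were lower. *Gabrp* and *Cftr* rested on 5 to 8 reads in those 2 libraries. The myoepithelial list summed to 570 TPM at P2 and to 108, 8.28 and 48.3 TPM at P4, P10 and P25. Most of that was *Acta2*, at 544, 106, 7.86 and 48.0 TPM. The granular and striated duct list summed to 25.8, 49.7, 0.994 and 0.635 TPM. The part of these shifts was not tested. Of the 128 other genes in the pathway lists, 5 of 47 were called lower at P25 against P10 and none higher, 10.6% beside 7.66% of all genes called in either direction: *Slc4a4*, a sodium bicarbonate cotransporter (-1.68 ± 0.28, adjusted p = 0.0219 by edgeR's test), *Clcn3*, a chloride proton exchanger (-1.28 ± 0.28, 0.0404), *Nr3c2*, the mineralocorticoid receptor (-4.26 ± 0.65, 0.0182), *Kcnj15* (-2.76 ± 0.31, 0.00991) and *Car5b*, a mitochondrial carbonic anhydrase (-1.87 ± 0.26, 0.0146). *Tmprss2*, a membrane serine protease, was the 1 of 53 called over the passage number (1.89% beside 0.490% of all genes), at -1.43 ± 0.21 per doubling (adjusted p = 0.0493).

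Between the lines, both aquaporins were lower and *Kcnn4* was higher in mSGc than in IMOK. These 3 of the 10 members passed, beside 14.9% of all 12885 genes tested, with 6.58% higher and 8.30% lower in mSGc (edgeR's quasi-likelihood test, 6 libraries against 3). The 6 mSGc libraries differ in medium and passage and are not replicates, so their spread holds both. *Aqp5* was at 213, 111 and 72.9 TPM in IMOK replicates 1, 2 and 3, a mean of 132 ± 72.2 (SD, n = 3), against 1.40 to 20.9 TPM and a mean of 10.2 ± 8.24 (n = 6) in mSGc. *Aqp3* was at 21.4, 39.2 and 10.5 TPM in IMOK, against 2.15 to 4.72 TPM in mSGc. For neither gene did the lines overlap. The log2 fold changes, mSGc over IMOK, were -3.45 ± 0.69 for *Aqp5* (adjusted p = 0.0101) and -2.65 ± 0.42 for *Aqp3* (adjusted p = 0.00332). *Kcnn4* was at 38.6, 50.8 and 45.5 TPM in IMOK, below the 64.6 to 90.7 TPM of mSGc, with a change of 1.01 ± 0.21 (adjusted p = 0.0120 by edgeR's test).

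The 2 P10 libraries alone, which per the paper match IMOK in passage number, kept these directions but no call. Against IMOK their adjusted p was 0.101 for *Aqp5*, 0.0816 for *Aqp3* and 0.105 for *Kcnn4* in edgeR's test. With any 1 library left out, 3 or 4 members were called. Without IMOK replicate 1 the changes were -3.01 for *Aqp5* (adjusted p = 0.0297), -2.77 for *Aqp3* (0.00673) and 0.86 for *Kcnn4* (0.0328). Among the acinar markers, the 10 found other than *Aqp5* summed to 0.230, 193 and 178 TPM in IMOK replicates 1, 2 and 3. *Smr3a*, *Prol1* and *Pip*, which encode salivary and lacrimal secretory proteins, were at 0 in replicate 1, where *Aqp5* was highest. In mSGc the same 10 genes summed to 0.558 to 184 TPM, with the maximum at P4 in SFM, where *Aqp5* was at 5.31 TPM.

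**Figure D4:**
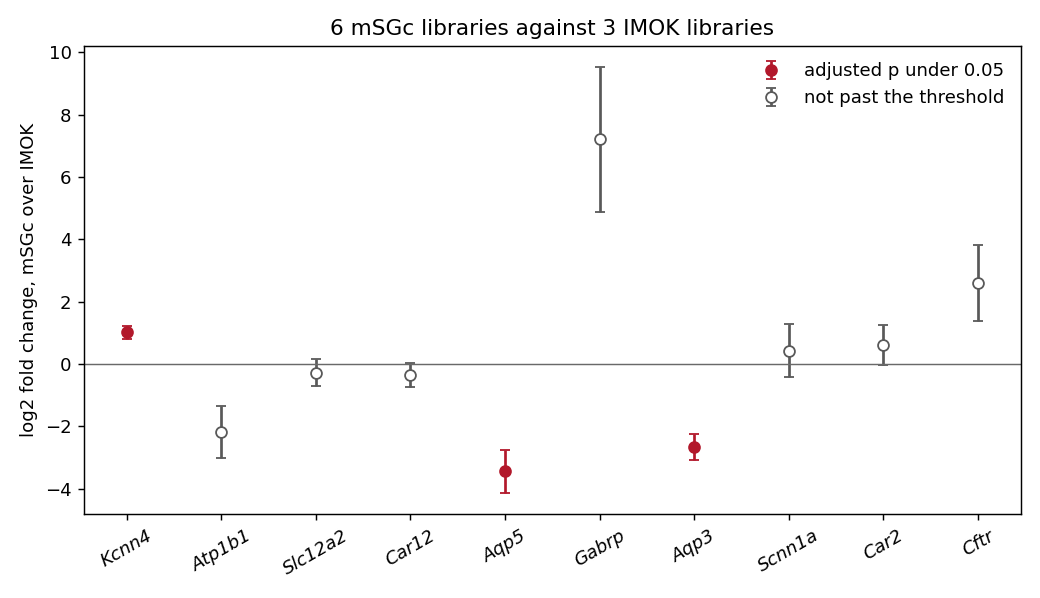
Log2 fold change of mSGc over IMOK for each gene, from 6 libraries against 3, with the standard error as bars; filled points passed an adjusted p of 0.05 in edgeR's test and open points did not. *Kcnn4* is above 0 and *Aqp5* and *Aqp3* below it, while *Gabrp* has the highest value with the widest bar (7.21 ± 2.32).

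*Gabrp* was at 0.501, 0.0707 and 0 TPM in IMOK, from 14, 2 and 0 reads, and at 0.215 to 137 TPM in mSGc. P25 SFM lay within the IMOK range, and the fitted change of 7.21 ± 2.32 did not pass (adjusted p = 0.0623 by edgeR's test, 0.0430 without P25 SFM and 0.0961 without IMOK replicate 1). *Cftr* was at 0.447, 0.423 and 0.297 TPM in IMOK and at 0.131 to 8.72 TPM in mSGc, with a change of 2.59 ± 1.21 (adjusted p = 0.180 by edgeR's test, 0.268 without IMOK replicate 1, 0.0490 by DESeq2). *Atp1b1* was at 974, 154 and 76.9 TPM in IMOK, where replicate 1 was far above the others, and at 20.6 to 244 TPM in mSGc. Its change of -2.19 ± 0.83 did not pass (adjusted p = 0.104), and it was -0.53 without IMOK replicate 1. Against the 4 SFM libraries alone, *Atp1b1* was called lower in mSGc, at -3.38 (adjusted p = 0.0287 by edgeR's test), as it was without P10 SCM alone, at -2.96 (0.0296).

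The other members did not separate the lines by test. *Car12* was at 42.0, 40.3 and 39.7 TPM in IMOK, all just above the highest mSGc library at 38.8 TPM, and its change was -0.35 ± 0.39 (adjusted p = 0.592 by edgeR's test). *Slc12a2* averaged 47.5 ± 4.11 TPM (SD, n = 3) in IMOK and 34.9 ± 20.5 (n = 6) in mSGc. *Scnn1a* was at 8.02, 2.59 and 1.75 TPM in IMOK, within the mSGc range, and *Car2* was at 1.57, 1.75 and 1.60 TPM, within it as well. Fitted changes were -0.27 ± 0.44 for *Slc12a2* (adjusted p = 0.725), 0.43 ± 0.86 for *Scnn1a* (0.784) and 0.61 ± 0.65 for *Car2* (0.580). Without IMOK replicate 1 these were -0.39, 1.24 and 0.52, and *Car12* was at -0.39, with adjusted p of 0.437 to 0.688 in edgeR's test. IMOK replicate 1 had the highest level of the 3 for *Aqp5*, *Atp1b1*, *Scnn1a*, *Gabrp*, *Cftr* and *Car12*. Its myoepithelial list summed to 892 TPM, against 9.48 and 14.9 TPM in the other replicates. Most of each sum was the single gene *Acta2*, at 880 TPM in replicate 1 and at 7.08 and 13.8 TPM in the others. The sum is thus no measure of the myoepithelial list as a whole, and the part of that difference was not tested.

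Of the 128 further pathway genes, 55 were tested between the lines, of which 4 were called higher and 7 lower in mSGc, a share of 20% beside 14.9% of all genes. Without IMOK replicate 1, 3 of 59 were called higher and 6 lower, 15.3% beside 14.7%. *Gabre*, another GABA-A receptor subunit gene, was at 2.78 to 3.24 TPM in IMOK and at most 0.812 TPM in mSGc (adjusted p = 0.0299 by edgeR's test, 0.0510 without IMOK replicate 1). The hypoxia-induced carbonic anhydrase *Car9* was at 7.33 to 84.3 TPM in mSGc and 0.828 to 1.44 TPM in IMOK (adjusted p = 0.0135, 0.0388 without that replicate). *Slc12a7*, a potassium chloride cotransporter, averaged 17.4 ± 3.57 TPM in mSGc and 59.9 ± 8.01 in IMOK (log2 fold change -1.57 ± 0.14, adjusted p = 0.000162). *Slc4a11* had a change of 1.74 ± 0.48 (adjusted p = 0.0361), *Slc12a9* of -1.01 ± 0.23 (0.0173) and the volume-regulated anion channel subunit *Lrrc8d* of -1.28 ± 0.15 (0.000760). Regulators of the sodium channel went both ways, with *Sgk1*, the aldosterone-responsive kinase, at 1.07 ± 0.23 (adjusted p = 0.0141), the protease inhibitor *Spint1* at -0.94 ± 0.24 (0.0270) and *Tmprss2* at up to 20.2 TPM in mSGc and at most 0.0734 TPM in IMOK (adjusted p = 0.0167). Of these 7, *Slc12a7* (adjusted p = 0.000761), *Lrrc8d* (0.00280), *Sgk1* (0.00865) and *Tmprss2* (0.0489) were also called without IMOK replicate 1, and *Slc4a11* (0.0929), *Slc12a9* (0.0509) and *Spint1* (0.0689) were not.

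For the 8 members whose level ranged over at least 2 on the log2(TPM + 1) scale, the genes with the nearest profiles over the 9 libraries were found by the root mean square difference of centred log2(TPM + 1) values, as a description with no test. The libraries share medium and passage, so many genes can have like profiles. *Gabrp* was nearest to *Id2*, a regulator of transcription, at 0.632, and *Cftr* to *Rhou* at 0.354 and to *Fam84a* at 0.365. *Id2* was at 1.03 TPM in P10 SFM and 90.0 in P10 SCM, and *Rhou* at 64.3 and 317 TPM. *Slc12a2* was nearest to *Sowahb* (0.263) and *Trim2* (0.306), *Car2* to *Serpinb8* (0.272) and *N4bp2* (0.288), and *Scnn1a* to *Cish* (0.412) and *Mtss1* (0.454). *Aqp3* was nearest to *Myo7a* (0.453) and *Tmem180* (0.463). Differences were larger for *Aqp5*, with *Padi4* (0.696) and *Pcolce* (0.718), for *Atp1b1*, with *Hs3st1* (0.690) and *Dapl1* (0.717), and for *Ogn* (1.00), the second gene for *Gabrp*. The measure is not scaled to a gene's range. *Aqp5*, *Atp1b1* and *Gabrp* also ranged most widely, over 6.48, 5.49 and 7.11, against 2.23 to 3.67 for the other members compared. Larger differences for them thus do not show less similar patterns. With a pseudocount of 0.1 TPM, 7 of these 16 genes were still among the 2 nearest.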

How the data were processed

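RNA was prepared with the TruSeq RNA kit and, per the labels and the submitters' processing notes, the authors aligned reads to mm9 with TopHat2 2.1.1 and Bowtie2 2.2.6. They counted reads per gene with featureCounts 1.5.1, and the deposited values are those counts, with gene lengths, for 23366 entries. The annotation, the use of strand and the treatment of multiply mapped reads are not given in the sources used here. Of the entries, 27 had been turned into dates and 4 had a name that another entry also carried. Other cell lines and tissues of the study were not analysed here.

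TPM was computed from counts and lengths. Tests used edgeR 4.0.16 (TMM, filterByExpr, quasi-likelihood test, Benjamini-Hochberg adjustment over all genes tested, threshold 0.05) in R 4.3.3. DESeq2 1.42.0 and limma voom 3.58.1 were alternatives, with other scalings, filters and sets of libraries. Scripts were tested on simulated data. Folds of 1 library against 1 have exact binomial 95% intervals. Depth limits the members with few reads, since 3 counts were 0.163 to 0.481 CPM. No mSGc condition has a second library, so no p-value here measures the spread between replicate mSGc cultures. In the line comparison the spread of mSGc holds medium and passage. In the matched libraries it holds the difference of the medium effect between passages. Nothing in the labels says whether the IMOK replicates were separate cultures, so the spread between them may be technical only. No libraries were merged.

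The members and gene lists were chosen with earlier results of these data known. Named genes were the members, the most changed called genes and the most abundant gene of each pathway list, defining markers and nearest profiles, of which a few are not reported here. Promoters were to be shown for aquaporins, carbonic anhydrases and *Gabrp*; those of *Cftr* and *Atp1b1* were added after their values were seen. Proteins are not shown.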

Additional observations from a re-analysis of the deposited data

Results flagged for a closer look

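In the 6 mSGc libraries, the level in P10 SCM was separated from the others by more than Dixon's 95% criterion for 5 of the 10 members tested. *Gabrp* was at 137 TPM there and at 11.7 TPM in the next library, and *Atp1b1* at 244 and 84.1 TPM. *Scnn1a* stood at 18.9 TPM with the next at 2.65, *Cftr* at 8.72 with the next at 2.10, and *Car2* at 6.53 with the next at 2.13. By the same criterion the highest library was separated for 11.3% of the 13053 genes at 1 TPM or more in an mSGc library, and it was P10 SCM for 3.16%. Chance alone would mark about 1 gene in 20 with normal values, the members were measured in the same library, and the 6 libraries differ in medium and passage by design. P10 SCM has no second library, so whether these levels belong to the condition or to this library cannot be told apart.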

How the results depend on the processing

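Counts of calls depended on the fit in every comparison. Between media, the 123 genes called became 523 with no filter, 305 with DESeq2 and 3 over 6 mSGc libraries with log2 passage. They became 0 in the shared fit to all 9 libraries (874 at an unadjusted p under 0.05) and 0 without the passage block (469). Without IMOK replicate 1 the shared fit gave 438, the most on leaving out any 1 library. Members called (3) became 1 with DESeq2's size factors in edgeR, 1 with at least 10 counts in every library (7 members tested), 1 over the 6 mSGc libraries, 0 in the shared fit and 0 without the block, and 0 to 4 on leaving out libraries. For P25 against P10, 915 genes became 1806 with no filter, 0 in the shared fit and 0 without the medium term (2481 at an unadjusted p under 0.05), and 0 to 2228 on leaving out libraries, the 2228 without IMOK replicate 1. The 1 member became 2 by library size only, 4 with no filter, 2 with at least 10 counts, 3 with DESeq2, 3 with voom, 0 in the shared fit and 0 without the medium term, and 0 to 3 on leaving out libraries. Between lines, 1918 genes became 2900 with DESeq2 and 547 with P10 mSGc only, and 738 to 1918 on leaving out libraries (738 without IMOK replicate 2, 943 without replicate 3); the 3 members became 0 with P10 only (5 at an unadjusted p under 0.05) and 3 to 4 on leaving out libraries. Over passage, 61 genes became 161 with no filter, 3 with at least 10 counts, 700 with DESeq2, 126 with untransformed passage and 31 with SFM only, and 0 to 329 on leaving out libraries (0 without P2 SFM or P25 SFM, 2 without P4 SFM, 329 without P10 SFM); the 1 member became 0 with at least 10 counts, 4 with DESeq2 and 0 with SFM only, and 0 to 2 on leaving out libraries. The *Gabrp* passage call was lost without P2 SFM, P4 SFM, P10 SCM or P25 SFM (adjusted p 0.0710 to 0.279 by edgeR's test). The difference of the medium effect between passages, whose alternatives were chosen after seeing the data, gave 7 genes with DESeq2, and 0 to 317 genes and 0 to 2 members on leaving out IMOK libraries. Of 16 nearest genes, 7 remained with a pseudocount of 0.1 TPM and 3 over the 6 mSGc libraries. The cause of these moves was not tested beyond the fewer genes or libraries that an alternative uses.

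Directions reversed only for members that were not called. Between media, *Slc12a2* became -0.49 without P10 SFM and -0.49 without P10 SCM, and *Car12* became 0.12 over the 6 mSGc libraries, 0.17 without P25 SFM and 0.17 without P25 SCM. For P25 against P10, *Car2* became 1.29 without P10 SCM and 1.29 without P25 SCM, *Kcnn4* -0.089 without P10 SFM and -0.087 without P25 SFM, and *Car12* -0.084 and -0.082 without the same. In both comparisons, leaving out a matched library lets a single pair of libraries set the estimate. These values on leaving out a library thus repeat the ratios of single pairs. Between lines, *Slc12a2* became 0.10 with P10 only, *Car2* -0.17 with SFM only, and *Scnn1a* -0.77 with SFM only and -0.68 without P10 SCM (-0.68 to 1.24 on leaving out libraries). Over passage, without P25 SFM, *Aqp5* became -0.18, *Aqp3* -0.025 and *Kcnn4* -0.077, and without P4 SFM *Aqp3* became -0.013. On leaving out each library these reached at most 0.60, 0.22 and 0.083. The other results for single members kept their direction: 637 stayed on the same side of the threshold, 52 lost it and 25 gained it. No replicate number pairs libraries across conditions, so passage and medium were the only blocks.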
